A study of Mus musculus with 4 samples.

Results

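The ISG15 conjugation and removal machinery was examined in Lgr5-high intestinal stem cells of mice without the type I interferon receptor chain Ifnar1, against cells of mice that have it. The genes are Isg15, Uba7, Ube2l6, Herc6, Trim25 and Usp18. They were chosen by name, for their roles in attaching or removing the modifier, and all 6 had at least 1 named probe among 21368 symbols on the array. The 6 genes carried 8 probes, and all 6 passed the filter that left 24866 genes to be tested. Herc6 and Usp18 passed it through the control arrays alone, because they were not well above background on both knockout arrays.

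Both groups carried the Lgr5-EGFP-Ires-CreERT2 knock-in, which places a green reporter and an inducible recombinase at the locus of the stem cell marker Lgr5. The knockout group was in addition Ifnar1-/-, and the labels tie that deletion to no cell type. Every mouse had received intraperitoneal poly(I:C), a double-stranded RNA mimic that triggers interferon production, at 2 mg/kg daily for 1 week. The sample labels place collection 1 week after the injection, and the labels do not settle whether that differs from the dosing period. No untreated samples are analysed here, so knockout and control were compared only in treated mice. Each group had 2 samples, 1 array each, and nothing in the labels says that they came from separate animals or gives the animals' age. The p-values thus reflect the scatter among these arrays, which could be technical.

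ISG15 is a ubiquitin-like protein that interferon induces and that cells join to newly made proteins through an activating enzyme, a conjugating enzyme and a ligase, in the order used for ubiquitin. A dedicated protease takes it off again, and that protease also dampens signalling at the type I interferon receptor. The genes of this cycle are classical targets of type I interferon, and the gut epithelium also responds to interferon lambda.

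A level below is the log2 processed signal of a gene's brightest probe minus the 75th percentile of its array, and a difference is knockout minus control on that scale. The replicate number and the slide coincided, so that slide 1 held knockout 1 and control 1 and slide 2 held knockout 2 and control 2. Between 63.3% and 67.7% of spots were well above background per array, and the negative controls' net signal was 34.8 and 35.3 on slide 1 against 17.2 and 17.6 on slide 2. Lgr5 had levels of 3.32 and 2.93 in the knockout, against 3.04 and 2.82 in the control. Of 10 Lgr5 stem cell markers 9 were tested, with differences from 0.01 to 0.98, while Olfm4 had no probe named here. Ifnar1 had levels of -1.76 and -2.28 in the knockout, against -0.21 and -0.37 in the control, and it fell with the slide as a block (limma, adjusted p = 0.0461) though not without that block (adjusted p = 0.48). Where its probes lie with respect to the deletion is not stated in any label or header, so this value checks the label only in part.

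The 6 genes spanned a wide range of differences. Among the 4 genes well above background on every array, Isg15 had the most negative difference, Trim25 and Uba7 were lower by less than 1 log2 unit, and Ube2l6 was near 0. Herc6 and Usp18 were lower too, but their place in that order rests on dim knockout spots and changed with the background correction: with normexp they differed by -0.84 and -0.25, beside -0.74 for Trim25 and -0.61 for Uba7. In 3 of those 4 genes both knockout levels lay below both control levels, which held for 10.8% of the genes well above background on every array. With Herc6 and Usp18, which passed the filter through the control alone, it was 5 of 6, beside 11.4% of all genes tested. The median difference of the 6 genes was -1.07, or -1.32 within slide 1 and -0.81 within slide 2, beside a median over all genes of 0.02. It was -0.68 with normexp background correction and -0.70 over the 4 genes well above background on every array. In such bulk samples fewer cells of a type and less RNA per cell cannot be told apart. None of the 6 passed over all genes at an adjusted p under 0.05, either without a slide term (limma called 0 genes lower, 0% of those tested) or with the slide as a block (limma called 90 genes lower, 0.362% of those tested, and 13 higher, 0.0523%). At an unadjusted p under 0.05, 5 of the 6 were lower in each limma fit and 0 were higher. That count includes Herc6 and Usp18, which passed the filter through the control alone. Of the 4 genes well above background on every array, it holds Isg15, Trim25 and Uba7 but not Ube2l6. Over all genes, 1.72% were lower and 1.04% higher at that threshold without the slide term, and 4.94% and 7.39% with the block. An exact permutation test of 2 arrays against 2 cannot give a two-sided p below 0.333 for a single gene.

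**Figure D1:**
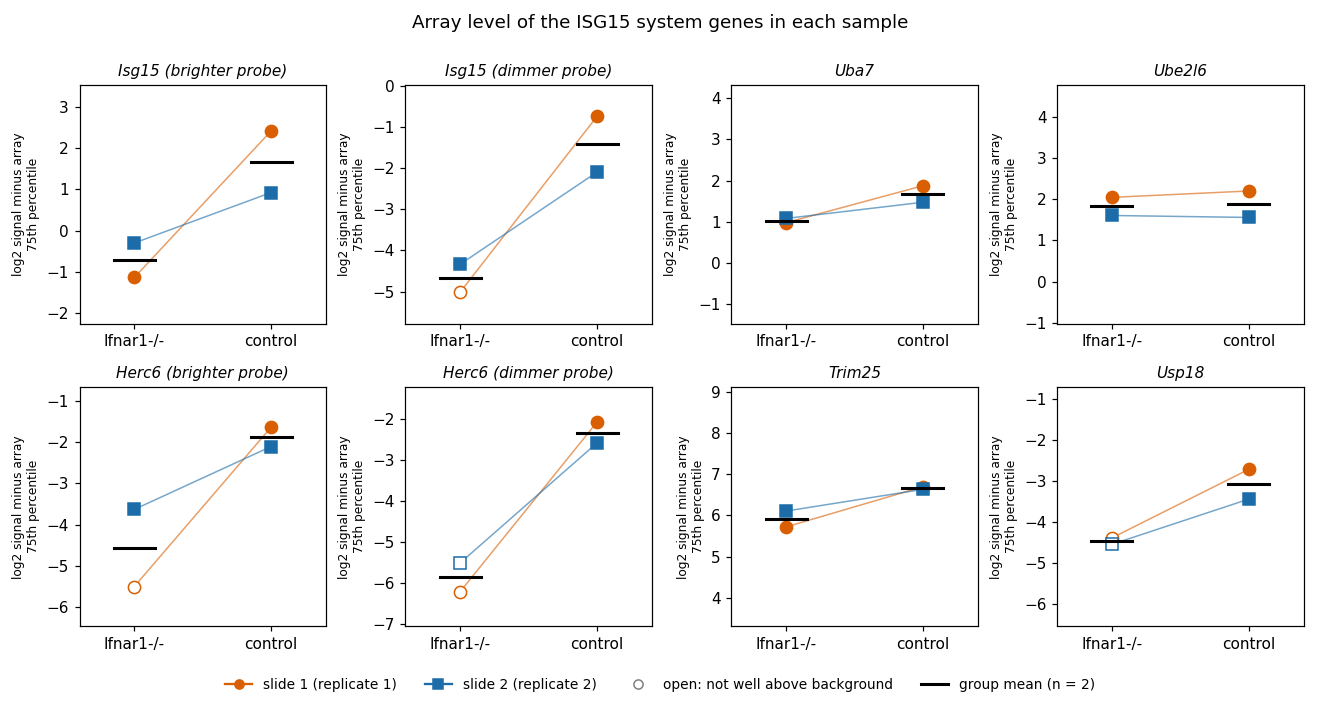
Level of each of the 8 probes of the 6 genes (log2 signal minus the array's 75th percentile, with the same span in every panel) in the Ifnar1-/- and control samples, joined within a slide; bars are group means (n = 2) and open symbols are spots not well above background. The knockout samples lie below the control samples in every panel but that of Ube2l6, where the groups overlap.

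Isg15 encodes the modifier itself. Its level was -1.14 and -0.30 in the 2 knockout samples, against 2.42 and 0.92 in the control samples. The groups did not overlap, and the lowest control lay 1.23 log2 units above the highest knockout. The signal was 5.25-fold lower in the knockout, a difference of -2.39 (95% interval -3.76 to -1.03, limma without slide term; adjusted p = 0.855, and 0.226 with the slide block). It was the 67th lowest difference among the genes tested. Single arrays moved its size. Leaving out control 1 gave -1.65 (limma, adjusted p = 0.553) and leaving out control 2 gave -3.14 (0.012). Leaving out knockout 1 gave -1.97 (limma, adjusted p = 0.666) and leaving out knockout 2 gave -2.81 (0.0814). The lone sample of a group is assumed in these fits to vary like the other group. A dimmer Isg15 probe was lower by more, with levels of -5.01 and -4.33 in the knockout and -0.74 and -2.10 in the control, although knockout 1 was not well above background there. The second probe thus lay on the same side on both slides.

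The bases just before the Isg15 start are shown because they hold a run of the interferon-stimulated response element, the DNA motif through which type I interferon switches on its target genes. The windows of Herc6 and Ube2l6 stand beside it. The Herc6 difference was the other large negative one, but it rests in part on a dim knockout spot and was -0.84 with normexp background correction. That of Ube2l6 was near 0. Each line gives the 130 bases before the annotated start, 5′ to 3′ on the gene's own strand, from RefSeq windows of build GRCm38.p6, and capitals mark bases that match the motif GAAANNGAAA or its reverse complement TTTCNNTTTC. The windows are chr4:156200819-156200948 on the minus strand for Isg15, chr6:57580862-57580991 on the plus strand for Herc6 and chr2:84798698-84798827 on the plus strand for Ube2l6.
Isg15: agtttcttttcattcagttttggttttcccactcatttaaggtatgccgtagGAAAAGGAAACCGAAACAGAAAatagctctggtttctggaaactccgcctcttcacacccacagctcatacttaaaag
Herc6: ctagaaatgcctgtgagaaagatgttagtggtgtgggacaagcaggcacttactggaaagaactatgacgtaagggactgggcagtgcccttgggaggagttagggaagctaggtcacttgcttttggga
Ube2l6: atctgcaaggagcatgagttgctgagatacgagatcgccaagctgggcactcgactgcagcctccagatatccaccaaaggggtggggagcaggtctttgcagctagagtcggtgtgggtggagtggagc
The Isg15 window held 3 overlapping matches on the sense strand, whose first bases lay at positions -78, -72 and -66 from the start and which together covered 22 bases. Among 32851 promoter windows of 300 bases, 3.44% held at least 1 match on either strand and 5 held 3 or more. The full windows of Herc6, Ube2l6, Uba7 and Trim25 held none, which says only that these letters are not in those windows. Usp18 has no window here. Of 446 tested genes with a match 14, or 3.14%, were called lower with the slide block, and of 11362 tested genes whose windows had none 30, or 0.264%. The median difference was -0.01 with a match and 0.04 without.

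Uba7 encodes the activating enzyme, which charges ISG15 at the start of the cycle. Its level was 0.98 and 1.08 in the knockout, against 1.88 and 1.47 in the control. The groups did not overlap, and the 2 knockout samples lay closer together than the 2 controls. The signal was 1.56-fold lower in the knockout (difference -0.64, 95% interval -1.20 to -0.09, limma without slide term; adjusted p = 1.00, and 0.26 with the slide block).

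Ube2l6 encodes the conjugating enzyme that receives ISG15 from Uba7. Its level was 2.05 and 1.61 in the knockout, against 2.20 and 1.56 in the control. The groups overlapped, and the samples of a slide lay closer together than the samples of a group. The difference was -0.05, with an interval of -0.79 to 0.68 without a slide term and of -0.33 to 0.22 with the slide block (limma, adjusted p = 1.00 and 0.873). A drop the size of that of Isg15 lies outside both intervals, while one the size of that of Uba7 lies inside the first and outside the second. Whether the differences of Isg15 and Ube2l6 differ from each other was not tested. The sign of the Ube2l6 difference turned positive without control 1 (0.27) and without knockout 2 (0.17).

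Herc6 encodes the main ligase for ISG15 in the mouse, the role that HERC5 has in human cells. Its level was -5.50 and -3.63 in the knockout, against -1.63 and -2.10 in the control. The groups did not overlap, and the knockout samples lay 1.87 log2 units apart. Knockout 1 was not well above background, so an exact fold is withheld and the difference rests in part on a dim spot; it was -2.70 (95% interval -4.38 to -1.02, limma without slide term; adjusted p = 1.00, and 0.23 with the slide block). It was -1.76 without knockout 1, the dim array (limma, adjusted p = 0.9), and -3.64 without knockout 2, which leaves that array alone in its group (adjusted p = 0.0296) and is likewise assumed to vary like the control. A dimmer Herc6 probe was not well above background on either knockout array. With each knockout array counted at its dimmest spot still well above background, that probe was 4.26-fold lower there. This fold is no firm minimum either, since spots not well above background can lie above that level. With normexp background correction, which compresses dim spots, the difference was -0.84.

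Trim25 encodes a ubiquitin ligase that acts on the RNA sensor RIG-I, has been reported as an ISG15 ligase and is itself modified by ISG15. Its level was 5.72 and 6.11 in the knockout, against 6.70 and 6.63 in the control. The groups did not overlap, and the controls lay within 0.06 log2 units of each other. The signal was 1.68-fold lower in the knockout (difference -0.75, 95% interval -1.30 to -0.21, limma without slide term; adjusted p = 1.00). With the slide block its adjusted p was 0.108, the lowest of the 6 genes.

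Usp18 encodes the protease that removes ISG15 and, independently of that activity, restrains the receptor by binding its Ifnar2 chain. Its level was -4.38 and -4.54 in the knockout, against -2.72 and -3.44 in the control. The groups did not overlap, but neither knockout spot was well above background and the control spots had processed signals of only 36.9 and 22.7. The measured means were -4.46 in the knockout and -3.08 in the control (limma, adjusted p = 1.00 without slide term and 0.304 with the block). Counting each knockout array at no less than its dimmest spot still well above background gave a 2.50-fold lower signal. That fold is no firm minimum, since a spot not well above background can lie above that level, as knockout 2 did (-4.54 beside -4.60). With normexp background correction the difference was -0.25.

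**Figure D2:**
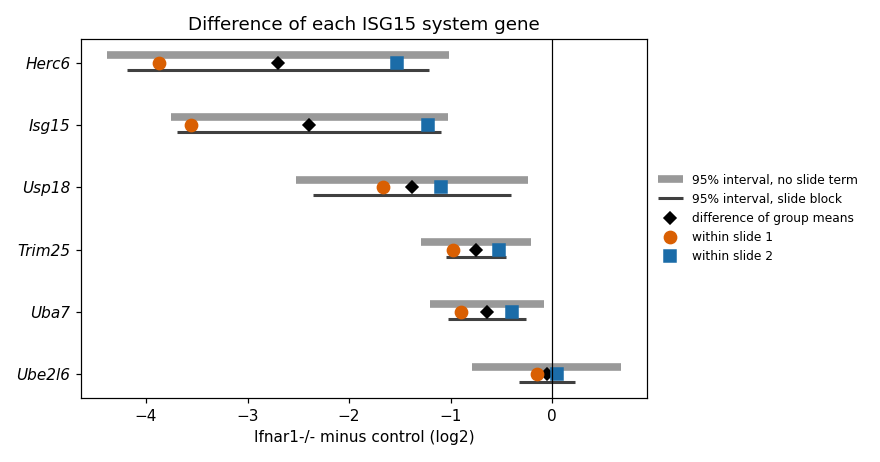
Ifnar1-/- minus control difference (log2) of each gene, as the difference of group means (diamonds), within slide 1 and slide 2 (circles and squares), with the 95% limma interval without a slide term (thick grey) and with the slide block (thin black). Herc6 at -2.70 and Isg15 at -2.39 lie farthest from 0, and Ube2l6 at -0.05 has intervals that span it. The Herc6 value rests in part on a knockout spot not well above background.

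The difference was more negative on slide 1 in each of the 5 genes that were lower on both slides. Across all genes, 27.2% were lower on both slides, and of those 60.7% had the more negative difference on slide 1. For Isg15 both groups contributed, since control 1 was above control 2 and knockout 1 below knockout 2; its difference was -3.56 on slide 1 and -1.23 on slide 2. Herc6 differed by -3.87 on slide 1 and -1.53 on slide 2. Usp18 (-1.66 and -1.10), Trim25 (-0.98 and -0.53) and Uba7 (-0.90 and -0.39) were closer together. Ube2l6 was at -0.15 on slide 1 and 0.05 on slide 2. The negative controls were brighter on slide 1 as well, and the part of that in these differences was not tested.

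**Figure D3:**
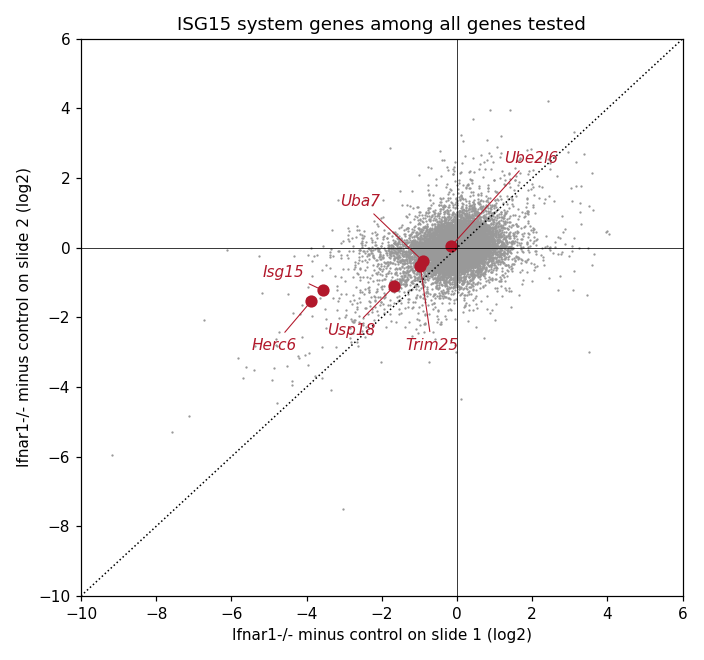
Ifnar1-/- minus control difference (log2) on slide 1 (horizontal) and slide 2 (vertical) for the genes tested (grey, 1 point per gene), with the 6 ISG15 system genes in red and the line of equal differences dotted. Isg15 and Herc6 stand to the left of the main cloud, at -3.56 and -3.87 on slide 1, and Ube2l6 lies near 0. The Herc6 knockout spot on slide 1 was not well above background.

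In the wider ubiquitin-like machinery the differences lay closer to 0. Of 15 listed ubiquitin and ubiquitin-like modifiers 14 were tested, with 0 called in either direction and differences from -0.19 to 0.26; Ubd, the interferon gamma-inducible modifier FAT10, did not pass the filter on dim probes. The 9 other activating enzymes ran from -0.25 to 0.28, with 0 called in either fit. The 31 other conjugating enzymes ran from -0.14 to 0.52, and again 0 were called. Among them Ube2l3, the nearest relative of Ube2l6 and a conjugating enzyme for ubiquitin, had levels of 3.65 and 3.99 in the knockout, against 3.46 and 3.82 in the control. Its difference of 0.18 was nearly the same on both slides (0.19 and 0.17). Ube2e2, the highest of the list at 0.52, did not pass (limma with slide block, adjusted p = 0.255).

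The relatives of the ligase and of the protease had list medians close to the median of all genes, while single genes lay higher. Herc1, Herc2, Herc3, Herc4 and Arih1, a ligase reported to attach ISG15, had a list median of 0.01 and ran from -0.14 to 0.30, with 0 called. Of 6 other proteases reported to act on ISG15, Usp13 did not pass the filter. The 5 tested ran from 0.10 to 0.48 with a median of 0.10, and 0 were called. In 3 of the 5 both knockout levels lay above both control levels, beside 14.5% of all genes tested. Usp16 was at 0.31 and Usp2 at 0.48, neither of which passed (limma with slide block, adjusted p = 0.333 and 0.449). The chains of the integrin receptor for secreted ISG15, Itgal and Itgb2, were at -0.14 and 0.31.

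**Figure D4:**
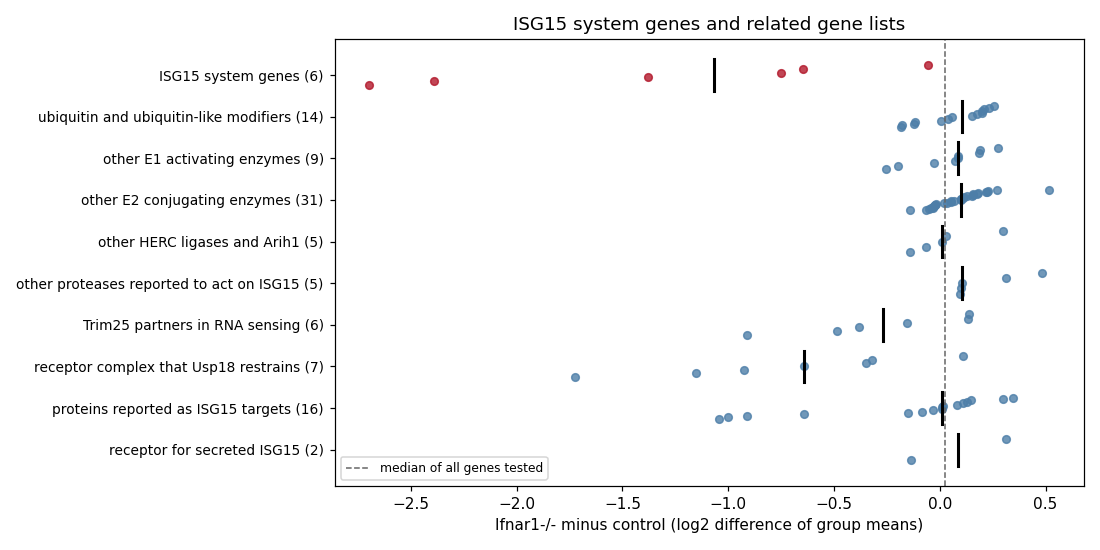
Ifnar1-/- minus control difference (log2, difference of group means) of the 6 ISG15 system genes (red) and of the tested genes of each related list (blue, number in parentheses), with list medians as black bars and the median of all genes as a dashed line. The ISG15 system genes span -2.70 to -0.05, while the lists of other modifiers, activating and conjugating enzymes, HERC ligases and proteases lie between -0.25 and 0.52. The value of -2.70, for Herc6, rests in part on a knockout spot not well above background.

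Genes that work next to the ISG15 system were examined in the same way. In the receptor complex that Usp18 restrains, 1 of 7 genes was called with the slide block, the targeted Ifnar1 itself, and the 7 had a median of -0.64 (slide 1, -0.87; slide 2, -0.41; -0.31 with normexp background correction). Stat2, the anchor through which Usp18 reaches the receptor, had levels of 0.02 and -0.11 in the knockout, against 1.50 and 0.71 in the control (difference -1.15; limma with slide block, adjusted p = 0.121). Irf9, the DNA-binding partner of Stat2, differed by -0.92 (adjusted p = 0.161). Both had groups that did not overlap, and neither passed.

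Of 6 partners of Trim25 in RNA sensing, 0 were called, and they ran from -0.91 to 0.14 with a median of -0.27. In 3 of them both knockout levels lay below both control levels, beside 11.4% of all genes tested. In 1 they lay above, beside 14.5%. Ddx58, which encodes RIG-I, had levels of -0.96 and -0.52 in the knockout, against 0.41 and -0.07 in the control (difference -0.91; limma with slide block, adjusted p = 0.286). Rnf135, the ligase Riplet that also modifies RIG-I, differed by -0.48 (adjusted p = 0.316). Zc3hav1, an antiviral RNA-binding protein that uses Trim25 as a cofactor, differed by -0.38 (adjusted p = 0.453).

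Of 18 proteins reported as ISG15 targets 16 were tested, and 1 was called with the slide block. That gene, the double-stranded RNA kinase Eif2ak2, had levels of 2.39 and 1.67 in the knockout, against 3.54 and 2.61 in the control, and fell by 1.04 on the log2 scale (limma with slide block, adjusted p = 0.0326; 1.00 without it). Ifih1, the sensor MDA5, had a 2.00-fold lower signal in the knockout (adjusted p = 0.255 in the limma fit with the block). The list median was 0.01, with differences from -1.04 to 0.35. In 3 genes both knockout levels lay below both control levels, beside 11.4% of all genes tested. In 3 others they lay above, beside 14.5%. Mx1 and Mx2, interferon-induced GTPases in that list, had no probe named here.

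The genes whose 4 levels, centred on their own mean, lay nearest to the mean centred profile of the 6 members were Nkd1, Ttc39a, Mocos, Parp9 and Gbp2. Their Euclidean distances over the 4 arrays were 0.10, 0.13, 0.22, 0.25 and 0.26 log2 units. Among the members Usp18 was nearest at 0.43 and Herc6 farthest at 1.72, so the mean profile describes the 6 genes poorly. Parp9, an interferon-induced partner of the ubiquitin ligase Dtx3l, had levels of 0.57 and 0.69 in the knockout, against 2.12 and 1.58 in the control (difference -1.22; limma with slide block, adjusted p = 0.0953). Nkd1, an inhibitor of Wnt signalling, differed by -1.24, and 1 of its 2 knockout spots was well above background. Gbp2, an interferon-inducible GTPase, differed by -1.20 with the same limit on the knockout side.

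Markers of other cells in the sort were set beside these values. All 11 tested Paneth cell markers of 14 listed were lower on both slides, beside 27.2% of all genes (median difference -2.07). With the slide block 8 of them were called lower, beside 0.362% of all genes. Their summed level, the log2 of the sum of linear levels, was 7.11 and 7.88 in the knockout, against 9.08 and 9.39 in the control. Without a slide term 0 genes were called, the markers of every cell type included. The blocked fit likewise called 0 genes when run without the variance trend. The 15 tested leukocyte markers of 16 listed had a median difference of 0.07 and a summed level of 7.90 and 8.47 in the knockout, against 7.94 and 8.50 in the control. Most of that sum came from the Itgam probe, at 7.67 and 8.35 in the knockout and 7.69 and 8.36 in the control, and 1 leukocyte marker was called. That gene, the lysozyme Lyz2, was at -0.78 and 0.10 in the knockout, against 2.04 and 2.56 in the control (limma with slide block, adjusted p = 0.00747). Ptprc, the pan-leukocyte marker CD45, was at -1.65 and -1.21 in the knockout and at -1.68 and -1.32 in the control. The 9 tested enteroendocrine markers of 10 listed had a median of -0.69, 7 were lower on both slides and 0 were called; their summed level was 2.23 and 2.91 in the knockout, against 3.05 and 3.68 in the control. The 9 goblet cell markers ran from -1.55 to 0.66, and 4 were lower on both slides. Their median was -0.37, or -0.89 within slide 1 and 0.06 within slide 2. The summed level of these 9 was 6.91 and 7.41 in the knockout, against 7.41 and 7.40 in the control. Only 1 of them, Ccl6, was called lower (limma with slide block, adjusted p = 0.0413). No marker was called among 8 tuft cell genes (median 0.02), 10 enterocyte genes (0.37) or the 2 tested stromal and endothelial genes of 7 listed (0.43). In 7 of the 10 enterocyte genes both knockout levels lay above both control levels, beside 14.5% of all genes tested. In 1 they lay below, beside 11.4%. The enterocyte summed level was 6.07 and 6.15 in the knockout, against 5.57 and 5.80 in the control. The part of the Paneth, enteroendocrine, goblet and enterocyte differences in the values of the ISG15 system was not tested.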

How the data were processed

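RNA of 4 sorted samples was amplified, labelled with Cy3 and hybridised to 1 Agilent array each, per the labels' protocols. The deposited scanner tables give linear spot intensity, background-subtracted by Feature Extraction 12.0.3.1 per the file headers; version 11.5.1.1 stands in the submitters' processing notes. The authors' series table held the same intensity times 1 constant per array (5.60 to 6.68, linear, not centred, column medians 239 and 223 in the knockout, 249 and 231 in the control); the target of that scaling is unknown.

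Control spots and the 111 to 172 outlier spots per array were left out, log2 signals were set against each array's 75th percentile, and spots of a probe were averaged. A probe had to be well above background on each array of 1 group or both, which 35422 were. Accessions matched RefSeq (GRCm38.p6) for 28331 of 55681 probes. A gene is its brightest probe. Array coordinates use build mm9 and are not given.

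Groups were compared with limma 3.58.1 in R 4.3.3 (intensity trend, Benjamini-Hochberg over all genes), without a slide term as the stated fit and with the slide as a block. Slide-mates deviated together: the difference between the knockouts and that between the controls had a Pearson r of 0.563 across genes, which are not independent. The blocked fit has 1 residual degree of freedom. In simulated data of 24865 genes, the fit without slide term recovered 0% of planted log2 drops of 1 and of 2, 14% of 3 and 30% of 4. The blocked fit recovered 22%, 60%, 70% and 78% of them, in the same order.

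The members and lists were chosen with earlier results of these data known. Named are the 6 members, Ifnar1, Lgr5, the 5 genes nearest to the members' mean profile, and up to 3 genes per list by smallest p in the blocked fit; Mx1, Mx2, Ubd, Usp13, Ptprc, Itgam, Lyz2, Ccl6 and Olfm4, and genes named only to spell out a list, were added after their values were seen. Alternatives covered scaling, background correction, the authors' table, filters, probes, flags, the variance trend, the threshold and the omission of single arrays. For normexp the median spot signal was taken, with an offset of 50. The number of arrays limits the precision. Some genes of the lists are not reported here by name.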

Additional observations from a re-analysis of the deposited data

How the results depend on the processing

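Without a slide term limma called 0 genes in either direction, also under the other scalings, backgrounds, filters, probe and flag rules and at a threshold of 0.1. The replicate block called 90 genes lower and 13 higher, but 0 and 0 without the variance trend; it changed no call of the 6 members. Leaving out 1 array called 9 to 94 genes lower and 0 to 6 higher, and the member median then ran from -1.29 to -0.87. That median was -0.68 with normexp background correction, which compresses dim spots, and -0.70 when every array had to be well above background, which drops Herc6 and Usp18. Isg15 passed without control 2 and Herc6 without knockout 2, in fits where 1 sample stands for its group and is assumed to vary like the other; the difference of Ube2l6 ran from -0.37 to 0.27, and was above 0 without control 1 (0.27) and without knockout 2 (0.17). The cause was not tested. The other 84 of 88 member values kept their direction and their side of the threshold. With the replicate block, leaving out an array leaves 1 pair, so that fit was not run.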
